A study of Mus musculus with 10 samples.

Results

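The genes described here encode mitochondrial chaperones and proteases: the chaperonin subunits Hspd1 and Hspe1, the matrix Hsp70 Hspa9, the matrix proteases Lonp1 and Clpp with the unfoldase Clpx, and the inner membrane proteases Yme1l1, Oma1, Afg3l2 and Spg7. Each was taken as the row of the deposited gene table whose name, split at commas, held the symbol. Of 10 listed genes, 9 had such a row, 0 of these rows were merged with another gene, and all 9 were among the 16056 genes tested, out of 49624 gene names in the table. Spg7 was not analysed here.

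RNA came from 10 single-end libraries of mouse embryonic stem cells, 2 per group, all grown in 2i/LIF medium with 1 µM PD0325901 (a MEK inhibitor), 3 µM CHIR99021 (a GSK3 inhibitor) and 1000 U/ml of the cytokine LIF. The KO group (genotype Mof-KO) and the WT group (wild type) share the strain C57BL/6J with Mof fl/fl and Cre-ER TM, that is, floxed alleles of Mof (the histone acetyltransferase gene Kat8) and a Cre recombinase that tamoxifen activates. These cells were given ethanol or 100 nM 4-hydroxytamoxifen for 3 days; which group had which is not stated, and no group had Cre and 4-hydroxytamoxifen with intact Mof, so the knockout and the drug with Cre cannot be told apart. The second experiment used the line E14tg2a: ETO had etomoxir, an inhibitor of fatty acid oxidation, for 4 days, Released had etomoxir and then 4 more days without it, and Control had water. The etomoxir dose and the time of the Control harvest relative to Released are not given in the sources used here. The duplicates are called biological, without a statement that they came from separate cultures, so p-values measure the spread between these samples only.

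Most mitochondrial proteins are made in the cytosol and imported unfolded. Hspa9 pulls them into the matrix and begins their folding, and the Hspd1 chaperonin with its Hspe1 lid completes it, while Lonp1 and the Clpx-Clpp complex degrade misfolded and regulatory matrix proteins. In the inner membrane, Afg3l2 works from the matrix side, alone or with Spg7, Yme1l1 works from the intermembrane space, and Oma1 is activated by membrane stress and cleaves the fusion protein Opa1. Hspd1, Hspe1, Lonp1 and Clpp are classical markers of the mitochondrial unfolded protein response, which in mammals involves the factors Atf4, Atf5 and Ddit3 (CHOP).

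Promoter windows of 300 bases ran from 250 before to 50 after a start site. They were taken for 7 of the 9 genes from the RefSeq promoter table, build GRCm38.p6. Those of Hspa9 and Afg3l2 are not reported here. The 4 windows printed here hold the heat shock, E-box and NRF1 matches. Hspd1 and Hspe1 are a head-to-head pair. The RefSeq start sites of their printed windows are 95 bases apart, at 55088243 for Hspd1 and 55088148 for Hspe1. Both transcripts run through the stretch between these sites. Capitals mark motif matches on either strand.
Hspe1, chr1:55087898-55088197, plus strand: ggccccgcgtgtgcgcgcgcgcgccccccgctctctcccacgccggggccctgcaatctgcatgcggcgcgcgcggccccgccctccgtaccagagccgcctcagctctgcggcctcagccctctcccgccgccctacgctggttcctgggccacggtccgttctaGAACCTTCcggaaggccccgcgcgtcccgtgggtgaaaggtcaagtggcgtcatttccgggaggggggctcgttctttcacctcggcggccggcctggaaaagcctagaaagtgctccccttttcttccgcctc
Hspd1, chr1:55088194-55088493, minus strand: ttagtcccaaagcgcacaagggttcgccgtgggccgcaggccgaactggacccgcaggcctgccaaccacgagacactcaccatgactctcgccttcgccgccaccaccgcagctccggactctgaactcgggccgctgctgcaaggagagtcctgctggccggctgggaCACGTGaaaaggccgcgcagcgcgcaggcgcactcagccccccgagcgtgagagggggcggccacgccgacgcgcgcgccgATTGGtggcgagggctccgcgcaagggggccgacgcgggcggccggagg
Lonp1, chr17:56626854-56627153, minus strand: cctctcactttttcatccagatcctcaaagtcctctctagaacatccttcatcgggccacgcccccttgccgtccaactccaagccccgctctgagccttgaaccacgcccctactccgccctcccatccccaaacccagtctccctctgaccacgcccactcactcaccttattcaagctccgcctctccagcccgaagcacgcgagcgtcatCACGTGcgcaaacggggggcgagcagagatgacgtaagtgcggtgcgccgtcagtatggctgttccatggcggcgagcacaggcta
Clpx, chr9:65294010-65294309, plus strand: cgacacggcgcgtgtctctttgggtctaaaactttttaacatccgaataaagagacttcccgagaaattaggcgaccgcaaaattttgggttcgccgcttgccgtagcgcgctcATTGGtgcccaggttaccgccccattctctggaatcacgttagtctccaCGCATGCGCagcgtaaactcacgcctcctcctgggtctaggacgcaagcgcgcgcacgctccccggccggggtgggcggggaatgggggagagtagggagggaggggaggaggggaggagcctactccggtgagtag
In the Hspe1 window, the capitals are a heat shock element pair (GAANNTTC) that begins at position -84 from the start site, counted in the direction of the gene. The second RefSeq window of Hspd1, with its start site at 55087932, held the same site, at position -139. The heat shock pair thus lies between that start and the Hspe1 start, outside the stretch where the transcripts overlap. In the Hspd1 window printed, the capitals are an E-box (CACGTG) at -80 and a CCAAT box, read on the opposite strand, at 2 bases past the start. Lonp1 had an E-box at -36. Clpx had an NRF1 element (GCGCATGCG) at -87 and a CCAAT box at -136, both read on the opposite strand, and Yme1l1 had a CCAAT box at -134.
Over all 32851 windows of the table, 7.86% held GAANNTTC, 7.15% CACGTG, 1.75% GCGCATGCG and 37.4% CCAAT. No window of these genes held the Atf4-Cebp element TGATGCAA (0.895% of all windows), that element with 1 base free, TGATGNAA (3.97%), the ERR element TCAAGGTCA (0.423%) or the YY1 element AAGATGGCG (1.40%). Windows of Hspa9 and Afg3l2 were not searched for any of these motifs. A match describes these letters only.

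The deposited counts are normalised per library and summed to between 10562067 and 13326172 per library. Their steps correspond to 9783467 to 16778540 reads, with 1 read worth 0.689 to 1.35 normalised counts. The lowest member value, 220.64 for Oma1 in KO replicate 1, lies far above the 2.07 to 4.04 normalised counts that 3 reads are worth. Kat8, the targeted gene, had 222 and 205 normalised counts in KO, against 433 and 357 in WT, a log2 change of -0.88 ± 0.11 (SE; limma adjusted p = 3.64e-05). All 7 embryonic stem cell markers (Pou5f1, Sox2, Nanog, Klf4, Esrrb, Zfp42 and Tfcp2l1) were expressed in every group. Released replicate 1 had 0 in a pair of mitochondrially encoded rows that Released replicate 2 did not, and those 2 rows were left out of all tests. In these bulk samples, fewer cells of a type and less RNA per cell cannot be told apart.

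Per length, and with each row taken as deposited, Hspa9 was the most abundant of the 9 genes and Oma1 the least. Mean FPKM over the 10 libraries was 361 for Hspa9, 254 for Hspd1 and 95.0 for Hspe1, the chaperones. Among the proteases it was 69.4 for Clpp, 68.9 for Lonp1, 66.4 for Yme1l1, 32.4 for Afg3l2, 23.4 for Clpx and 16.7 for Oma1. All 9 thus stood in the upper part of the tested genes, with percentiles between 59.7 for Oma1 and 98.6 for Hspa9. Duplicates lay close: the median absolute log2 difference between the replicates of a group, over the 9 genes, was highest in KO at 0.156 and lowest in Control at 0.033, where all tested genes gave 0.147 in KO and 0.106 in Control. The widest gap was 0.283, for Yme1l1 in WT.

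**Figure D1:**
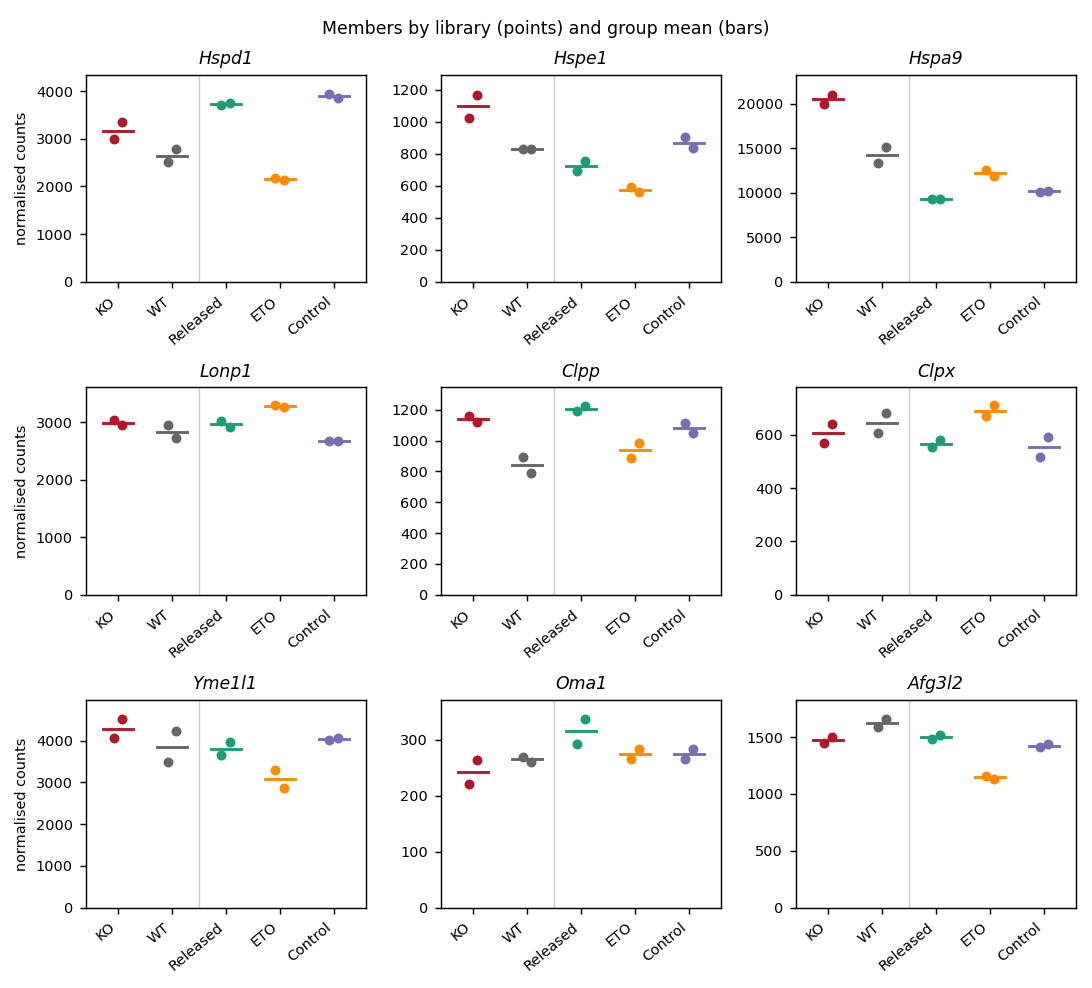
Normalised counts of the 9 genes in each library (points) and group means (bars), with the groups along the x axis and each y axis starting at 0. The KO and WT experiment stands left of the grey line. Hspa9 was highest in KO, at 20045 and 20995, and Hspd1 lowest in ETO, at 2178 and 2139.

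A pair of members share sequence with processed pseudogenes that have rows of their own in the table. Hspd1-ps3, on chr11:41498737-41500458 (GENCODE M21, GRCm38), matched the Hspd1 transcript at 99.0% identity over 1722 bases, and 42.8% of the 50-base windows of that transcript occur in it unchanged. Its row held as much signal as Hspd1 itself: the ratio of Hspd1 to Hspd1-ps3 lay between 0.919 and 1.14 in the 10 libraries. Hspa9-ps1, on chrX:60576946-60578878, matched Hspa9 at 92.1% over 1905 bases, with 4.10% of the windows unchanged, and the ratio of Hspa9 to it lay between 5.71 and 7.16. How the authors' counting split reads between a gene and its copy is not given in the sources used here, so the levels of Hspd1 and, to a lesser extent, Hspa9 are uncertain. Their order is too: with the copies' signal given to the gene, mean FPKM would be 419 for Hspa9 and 513 for Hspd1. Copies of Clpx held 4.02% of its signal, those of Yme1l1 0.208% and those of Hspe1 0.122%, and 0 copies passed the search for Lonp1, Clpp, Oma1 and Afg3l2.

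The copies' rows changed in the same directions as their genes. Hspd1-ps3 had 3150 and 3381 normalised counts in KO, against 2242 and 3031 in WT, and 2159 and 1873 in ETO, against 3943 and 4121 in Control. Hspa9-ps1 had 3195 and 3245 in KO against 2193 and 2117 in WT, and 1992 and 2082 in ETO against 1673 and 1621 in Control. The change of Hspd1-ps3 in KO (log2 change 0.32 ± 0.12, limma adjusted p = 0.0439) held its call in 10 of 22 alternatives, and that of Hspa9-ps1 (0.58 ± 0.06, limma adjusted p = 6.83e-06) in all 22. Adding the copies' rows to each gene, an alternative chosen after these rows were seen, changed no call of the 9 genes. Hspd1 and Hspe1 also share 112 exonic bases at their starts in GENCODE M21, and whether the counting used strand is not stated, so reads there cannot be assigned to one of them.

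**Figure D2:**
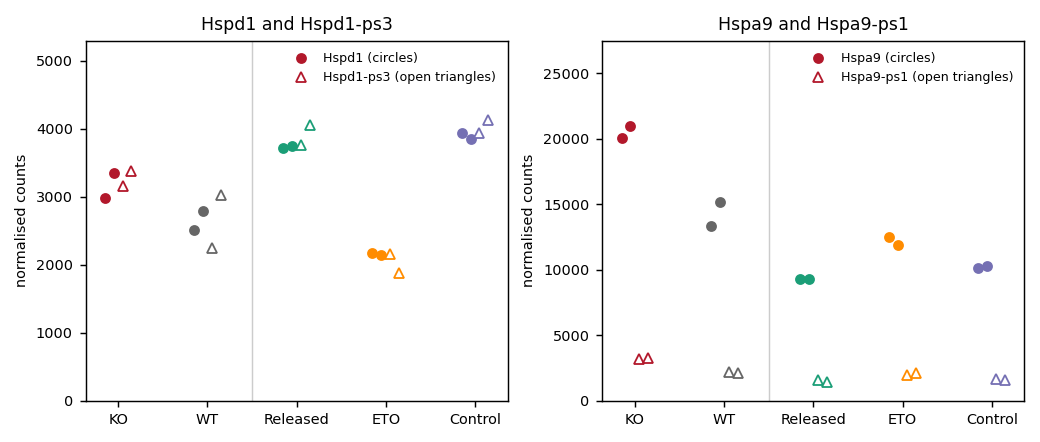
Normalised counts of Hspd1 and Hspa9 (filled circles) and of their processed pseudogenes (open triangles) in each library, by group, with y axes starting at 0. Circles and triangles lie at similar heights for Hspd1, while Hspa9-ps1 lies below Hspa9 by a factor of 5.71 to 7.16.

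Loss of Mof was accompanied by higher mRNA of both chaperonin subunits, of Hspa9 and of Clpp, while the other 5 genes passed no test. A gene was called when limma gave it an adjusted p under 0.05, with the adjustment over the whole tested table. Of the 9 genes, 4 rose and 0 fell in KO, where 37.9% of all tested genes were called, 24.6% higher and 13.3% lower. The median log2 change was 0.16 over the 9 genes and 0.08 over all tested genes.

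Hspa9, the matrix Hsp70, had 20045 and 20995 normalised counts in KO and 13349 and 15156 in WT, with no overlap. Its log2 change was 0.53 ± 0.06 (SE), or 1.44-fold (limma adjusted p = 9.67e-06), the largest of the 9. Hspe1, the lid of the chaperonin, had 1024 and 1168 in KO against 827 and 830 in WT. Both KO libraries lay above both WT libraries, 1.32-fold at a log2 change of 0.40 ± 0.09 (limma adjusted p = 0.00184). Hspd1, which forms the chaperonin barrel, had 2985 and 3349 in KO and 2512 and 2785 in WT, a log2 change of 0.26 ± 0.07 (limma adjusted p = 0.0076). The Hspd1 groups did not overlap, but the call depended on the processing: the adjusted p was 0.108 without KO replicate 2, with a log2 change of 0.17, and 0.289 with total signal as the scaling factor, with a log2 change of 0.09. The call was also lost in the FPKM values (0.101), in a fit of KO and WT alone (0.0636) and without trend and robust fitting (0.0596).

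Among the matrix proteases, Clpp, the proteolytic chamber, had 1158 and 1122 normalised counts in KO against 893 and 792 in WT. Its log2 change was 0.44 ± 0.08, or 1.35-fold (limma adjusted p = 0.000573), and the groups did not overlap. Clpx, the unfoldase that feeds Clpp, had 570 and 641 in KO and 608 and 682 in WT, overlapping ranges with a log2 change of -0.09 ± 0.10 (limma adjusted p = 0.495). Lonp1, which degrades oxidised matrix proteins, had 3039 and 2960 in KO and 2961 and 2722 in WT, with a log2 change of 0.08 ± 0.06 (limma adjusted p = 0.322). Its KO and WT libraries overlapped.

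The inner membrane proteases passed no test in KO. Afg3l2, the m-AAA protease subunit, had 1445 and 1500 normalised counts in KO and 1585 and 1662 in WT, non-overlapping, with a log2 change of -0.14 ± 0.06 (limma adjusted p = 0.0945). It was called lower when libraries were rescaled, with adjusted p of 0.0124 by median-of-ratios factors, 0.0133 by TMM factors and 0.00142 by total signal. Yme1l1, the i-AAA protease, had 4050 and 4514 in KO against 3478 and 4233 in WT. Its groups overlapped, at a log2 change of 0.16 ± 0.09 (limma adjusted p = 0.196), and it was called at an adjusted p of 0.0107 without WT replicate 2, with a log2 change of 0.30. Oma1 had 221 and 263 in KO against 269 and 261 in WT, overlapping, with a log2 change of -0.14 ± 0.12 (limma adjusted p = 0.39).

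Rescaling moved the balance in KO: 4 rose and 1 fell by median-of-ratios or TMM factors, and 3 rose and 2 fell by total signal, with Clpx the second gene lower (-0.26, limma adjusted p = 0.0461). Over all called genes, the share that was higher was 64.8% as deposited, 52.5% by median-of-ratios factors, 52.9% by TMM factors and 37.3% by total signal. Hspe1, Hspa9 and Clpp rose under all 22 alternatives run.

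**Figure D3:**
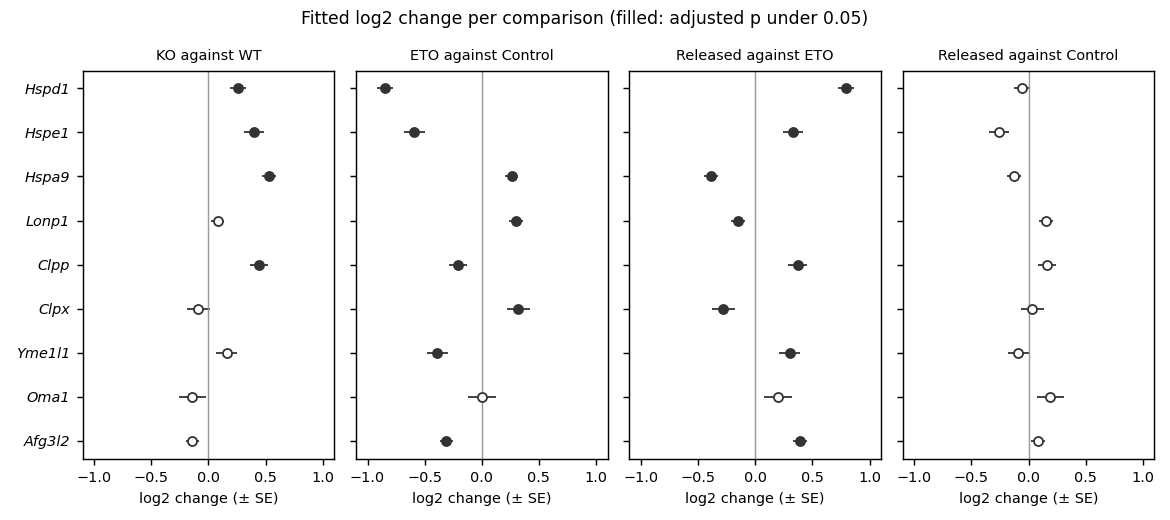
Fitted log2 change ± SE of each gene in 4 comparisons, 1 panel each. Filled points passed an adjusted p of 0.05: 4 genes in the KO panel, 8 in the ETO panel, 8 where Released is set against ETO and 0 where it is set against Control.

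Etomoxir split the set. Chaperonin mRNA fell, with Hspd1 the most changed of the 9, and Yme1l1, Afg3l2 and Clpp also fell, while Hspa9, Lonp1 and Clpx rose. Of the 9 genes, 3 rose and 5 fell in ETO, where 60.8% of all tested genes were called, 26.8% higher and 34.0% lower. The median log2 change was -0.21 over the 9 genes and -0.09 over all tested genes.

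Hspd1 had 2178 and 2139 normalised counts in ETO against 3935 and 3847 in Control, 0.555-fold. The log2 change of -0.85 ± 0.07 (limma adjusted p = 3.51e-08) was -0.76 relative to the all-gene median. Hspe1 had 592 and 559 in ETO against 902 and 834 in Control, a log2 change of -0.59 ± 0.09 (limma adjusted p = 2.15e-05). For both, all ETO libraries lay below all Control libraries. Hspa9 had 12529 and 11886 in ETO against 10148 and 10247 in Control, a log2 change of 0.26 ± 0.06 (limma adjusted p = 0.00121), again without overlap. Within a library, Hspa9 thus held 5.75 and 5.56 times the normalised count of Hspd1 in ETO, against 2.58 and 2.66 times in Control. These ratios are not per length.

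Lonp1 had 3311 and 3273 normalised counts in ETO against 2670 and 2678 in Control, 1.23-fold (log2 change 0.30 ± 0.06, limma adjusted p = 0.000449). Clpx had 669 and 710 in ETO against 515 and 593 in Control, also without overlap, at a log2 change of 0.32 ± 0.10 (limma adjusted p = 0.00971). The Clpx call was lost in the FPKM values (adjusted p = 0.70, log2 change 0.09), without ETO replicate 2 (0.0756) and without Control replicate 1 (0.133). Its partner Clpp had 888 and 984 in ETO and 1112 and 1046 in Control, non-overlapping, with a log2 change of -0.21 ± 0.08 (limma adjusted p = 0.0349). The Clpp call was lost in 11 of 22 alternatives, which include all 3 rescalings (adjusted p between 0.229 and 0.865) and 5 that leave out 1 library: ETO replicate 1 (0.266, log2 change -0.13), Control replicate 1 (0.203), Control replicate 2 (0.0558), Released replicate 1 (0.0527) and Released replicate 2 (0.0526).

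In the inner membrane, Yme1l1 had 3305 and 2874 normalised counts in ETO against 4023 and 4061 in Control, a log2 change of -0.39 ± 0.09 (limma adjusted p = 0.00168). Afg3l2 had 1157 and 1134 in ETO against 1410 and 1435 in Control, a log2 change of -0.31 ± 0.06 (limma adjusted p = 0.000529). Neither gene's groups overlapped, and both calls were lost when total signal was the factor, at adjusted p of 0.0555 for Yme1l1 and 0.103 for Afg3l2. Oma1 had 266 and 283 in ETO and 265 and 284 in Control, overlapping, with a log2 change of 0.00 ± 0.12 (limma adjusted p = 0.994).

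The all-gene median log2 change in ETO was -0.09 as deposited, 0.01 by median-of-ratios factors and 0.09 by total signal. The share of called genes that was higher was 44.1% as deposited, 51.9% by median-of-ratios factors, 50.6% by TMM factors and 58.7% by total signal. The split of the 9 genes was 3 higher and 4 lower by median-of-ratios or TMM factors and 3 higher and 2 lower by total signal. Hspd1, Hspe1, Hspa9 and Lonp1 kept their calls in all 22 alternatives, with Hspd1 between -0.92 and -0.66 and Lonp1 between 0.29 and 0.49.

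Other measures moved with etomoxir. The 7 embryonic stem cell markers all fell and summed to 35980 and 37980 normalised counts in ETO, against 59590 and 59510 in Control. The 5 trophectoderm markers summed to 393 and 450 in ETO against 101 and 71.6 in Control. Krt7 carried most of the ETO sum. Of the 5, 0 were at 0 in both ETO libraries, but 3 were under 10 in both (Cdx2, Elf5 and Hand1). Of 3 tested, Krt7 and Gata3 rose, Krt7 to 309 and 337 in ETO, against 16.5 and 16.6 in Control, while Cdx2 fell to 5.93 and 7.47 in ETO, against 61.6 and 35.3 in Control (log2 change -2.64 ± 0.49, limma adjusted p = 0.00026). The 5 primitive endoderm markers summed to 587 and 565 in ETO against 283 and 260 in Control. Of these, 0 were at 0 and 1 was under 10 in both ETO libraries (Sox17), and of 4 tested Gata4 and Gata6 rose. The 6 fibroblast markers summed to 165 and 165 in ETO against 58.3 and 58.1 in Control, with 1 at 0 in both ETO libraries (Col3a1). Col1a1 alone carried that sum, at 152 and 154 in ETO against 39.6 and 40.5 in Control, and Thy1 had 10.9 and 5.81 in ETO against 9.91 and 10.4 in Control. Mitochondrially encoded rows held 0.761% and 0.588% of the signal in ETO, against 3.39% and 3.34% in Control. The part of these in the changes of the 9 genes was not tested. In KO the embryonic stem cell markers summed to 53170 and 53400, against 58080 and 56470 in WT, where Esrrb fell to 13446 and 12709 in KO, against 17996 and 16807 in WT, while Nanog, Klf4 and Zfp42 rose. That made 3 of the 7 higher and 1 lower, and each of the 3 rescalings gave 2 higher and 3 lower. In KO the trophectoderm markers summed to 214 and 234 against 218 and 212 in WT, and the fibroblast markers to 44.4 and 32.7 against 37.9 and 29.5. The primitive endoderm markers summed to 105 and 102 against 115 and 115, with opposite calls among them. Gata4 fell to 56.5 and 45.8 in KO, against 84.2 and 86.4 in WT (log2 change -0.73 ± 0.22, limma adjusted p = 0.0147). Dab2, at 7.40 and 1.96 in WT, rose to 12.1 and 27.5 in KO (1.95 ± 0.49, limma adjusted p = 0.0134). In both KO libraries, 3 of the 6 fibroblast markers (Col1a2, Postn and Dcn) and 2 of the 5 trophectoderm markers (Cdx2 and Hand1) were at 0. Their part in the KO changes was not tested.

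After 4 days without etomoxir, Hspd1, Hspe1, Clpp, Yme1l1 and Afg3l2 were higher than in ETO, and Hspa9, Lonp1 and Clpx were lower. None of the 9 was called against Control by limma, which is given last. The comparison with ETO uses the same ETO libraries as the one above. All 7 embryonic stem cell markers were also higher than in ETO, at a sum of 59840 and 59890 in Released against 35980 and 37980 in ETO. The primitive endoderm markers summed to 614 and 677 in Released, against 587 and 565 in ETO and 283 and 260 in Control, most of it Dab2, with 503 and 584 in Released, 284 and 272 in ETO and 209 and 182 in Control. The trophectoderm markers summed to 148 and 121 in Released, against 101 and 71.6 in Control, and the fibroblast markers to 73.0 and 63.3, against 58.3 and 58.1. Of the tested markers, only Krt7 and Gata6 were called in Released against Control. Both were higher, by log2 changes of 1.03 ± 0.15 and 1.22 ± 0.30 (limma adjusted p = 0.000524 and 0.0165). Mitochondrially encoded rows held 1.71% and 3.71% of the signal in Released, the first without the pair of rows listed at 0. The part of these in the changes of the 9 genes was not tested. Against ETO, 5 genes rose and 3 fell in Released, where 57.7% of all tested genes were called, 33.1% higher and 24.6% lower. The median log2 change was 0.30 over the 9 genes and 0.10 over all tested genes.

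Hspd1 had 3715 and 3744 normalised counts in Released, a log2 change of 0.79 ± 0.07 against ETO (limma adjusted p = 9.89e-08), and Afg3l2 had 1480 and 1520, a change of 0.39 ± 0.06 (limma adjusted p = 8.4e-05). Clpp had 1191 and 1223 in Released, a log2 change of 0.37 ± 0.08 against ETO (limma adjusted p = 0.000969). Hspa9, at 9298 and 9309 in Released, was lower than in ETO by a log2 change of -0.39 ± 0.06 (limma adjusted p = 3.42e-05). These 4 calls held in all 22 alternatives.

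The other calls against ETO were less stable. Hspe1 had 692 and 757 in Released, a log2 change of 0.33 ± 0.09 against ETO (limma adjusted p = 0.00373), lost without Released replicate 2 (0.0586) and by total signal (0.0646). Yme1l1 had 3644 and 3961, a change of 0.30 ± 0.09 (limma adjusted p = 0.0105), lost in 7 of 22 alternatives, among them without Released replicate 2 (0.10), without ETO replicate 2 (0.132) and all 3 rescalings. Clpx had 553 and 579, a change of -0.28 ± 0.10 (limma adjusted p = 0.0197), lost in 5, among them without Released replicate 1 (0.114), without Released replicate 2 (0.0518) and without ETO replicate 2 (0.121). Lonp1 had 3033 and 2914, a change of -0.15 ± 0.06 (limma adjusted p = 0.0462), which was lost in 11 alternatives, including 8 of the 10 that leave out 1 library, all but the WT libraries (adjusted p between 0.0543 and 0.243). Oma1 had 293 and 337 in Released, above both ETO libraries, with a log2 change of 0.20 ± 0.12 that missed the threshold (limma adjusted p = 0.174). Over all called genes, 57.4% were higher in Released as deposited, 49.0% by median-of-ratios factors, 49.2% by TMM factors and 45.0% by total signal.

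Against Control, 0 of the 9 genes were called by limma in Released, where 12.5% of all tested genes were called, 7.03% higher. The Released and Control libraries did not overlap for 8 of the 9 genes, Clpx being the exception, and for 61.7% of all tested genes. Hspe1 was furthest from Control, at 692 and 757 in Released against 902 and 834, with a log2 change of -0.26 ± 0.09 (limma adjusted p = 0.058). Its adjusted p crossed the threshold in 7 of 22 alternatives, among them a fit of the E14tg2a groups alone (0.0142), without KO replicate 1 (0.0473), without KO replicate 2 (0.048), without WT replicate 1 (0.0322) and without WT replicate 2 (0.0321). Hspa9 (-0.13 ± 0.06, limma adjusted p = 0.156) and Lonp1 (0.15 ± 0.06, limma adjusted p = 0.111) crossed it in the same fit of the E14tg2a groups alone, at 0.0121 and 0.0178, and without either WT library. Over all called genes, 56.1% were higher in Released than in Control as deposited and 70.0% by total signal.

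The KO and ETO changes were compared as their difference in the same model; the comparison crosses 2 cell backgrounds, and it shares no libraries between its arms. Of the 9 genes, 5 had a higher change in KO than in ETO and 2 a lower one, where 54.5% of all tested genes were called, 32.3% higher and 22.2% lower. The chaperonin genes differed most, with a log2 difference of 1.11 ± 0.10 for Hspd1 (limma adjusted p = 1.8e-07) and 0.99 ± 0.12 for Hspe1 (limma adjusted p = 5.64e-06), relative to the all-gene median 0.97 and 0.86. Clpp followed at 0.64 ± 0.11 (limma adjusted p = 0.000184), and these 3 held in all 21 alternatives. The other calls were Yme1l1, at 0.55 ± 0.13 (limma adjusted p = 0.00223), Hspa9, at 0.27 ± 0.08 (limma adjusted p = 0.0121), Lonp1, at -0.22 ± 0.08 (limma adjusted p = 0.0378), and Clpx, at -0.41 ± 0.14 (limma adjusted p = 0.0193).

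Hspa9 was the 1 gene called higher in both KO and ETO, and its difference depended on the scaling: it was 0.09 by median-of-ratios factors (limma adjusted p = 0.381) and -0.09 by total signal (limma adjusted p = 0.388). It was also lost without KO replicate 2 (0.0537) and without ETO replicate 2 (0.0516). The Lonp1 difference was lost in 12 of 21 alternatives, 9 of which leave out 1 library, all but WT replicate 2, with adjusted p between 0.0537 and 0.101. The Clpx difference was lost in 6, including without KO replicate 1 (0.0813), without WT replicate 2 (0.0558), without ETO replicate 2 (0.0724) and without Control replicate 1 (0.106). Over all called genes, 59.3% were higher as deposited, 46.7% by median-of-ratios factors and 34.5% by total signal.

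Ratios within a library, which the scaling cannot change, describe how the working partners moved. Clpp over Clpx, protease chamber over unfoldase, was 2.03 and 1.75 in KO against 1.47 and 1.16 in WT, 2.15 and 2.11 in Released, 1.33 and 1.39 in ETO and 2.16 and 1.77 in Control. In normalised counts it was thus lower in both ETO libraries than in both Control libraries, and higher in both KO libraries than in both WT libraries. In FPKM values the ETO and Control ratios overlapped, while those of KO and WT did not. Clpx had FPKM of 20.5 and 30.6 in ETO against 21.4 and 25.7 in Control, and Clpp 59.2 and 65.6 against 74.1 and 69.8. Hspd1 over Hspe1 was 2.91 and 2.87 in KO against 3.04 and 3.35 in WT, 5.37 and 4.94 in Released, 3.68 and 3.82 in ETO and 4.36 and 4.61 in Control. With the Hspd1 row as deposited, the chaperonin ratio was lower in both KO libraries than in both WT libraries. It was also lower in both ETO libraries than in both Control libraries. How reads were split between Hspd1 and Hspd1-ps3 is not given, and ratios with the copy added were not computed. In WT, Hspd1-ps3 had 2242 and 3031 normalised counts, against 2512 and 2785 for Hspd1, so the KO difference may depend on that split. Between the experiments, WT at 3.04 and 3.35 and Control at 4.36 and 4.61 did not overlap, and cell line and experiment cannot be told apart there. Hspa9 over Hspd1 was 6.72 and 6.27 in KO and 5.31 and 5.44 in WT, against 2.50 and 2.49 in Released.

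**Figure D4:**
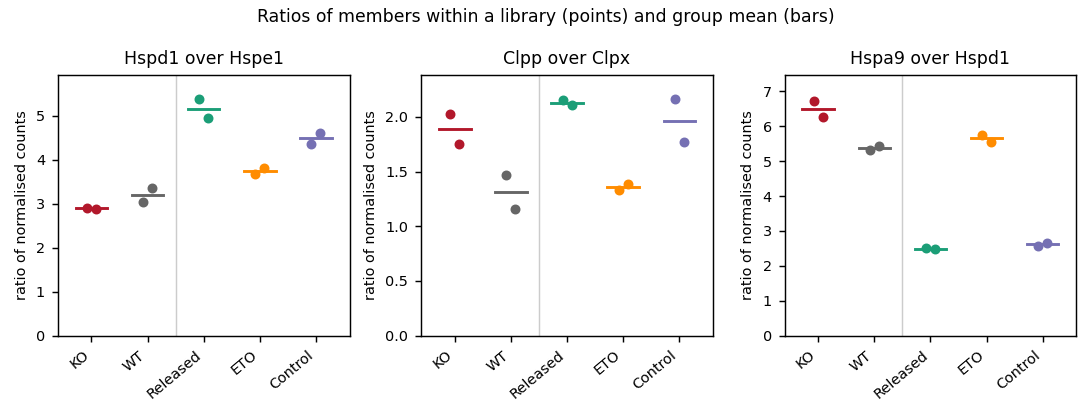
Ratios of normalised counts within a library (points) and group means (bars) for Hspd1 over Hspe1, Clpp over Clpx and Hspa9 over Hspd1, by group, with y axes starting at 0. Hspa9 over Hspd1 lies at 5.75 and 5.56 in ETO and at 2.58 and 2.66 in Control.

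The order of the groups differed between the genes. It sets 2 cell backgrounds on 1 scale. In steps between KO or WT and the other groups, cell line and experiment cannot be told apart. The all-gene share of neighbours without overlap was not computed. For scale, Released and Control libraries did not overlap for 61.7% of all tested genes. Hspd1 ran from Control over Released, KO and WT down to ETO, with no overlap between neighbours, and Hspe1 from KO over Control, WT and Released down to ETO, where neighbours did not overlap either. Hspa9 ran from KO over WT, ETO and Control down to Released, again with no overlapping neighbours, and covered a 2.21-fold range of group means, the widest of the 9. Clpp ran from Released over KO and Control to ETO and WT, and ETO and WT overlapped. Afg3l2 ran from WT over Released, KO and Control to ETO, and Released and KO overlapped. For Lonp1, Clpx, Yme1l1 and Oma1 several neighbours overlapped, and group means covered 1.23-fold, 1.24-fold, 1.39-fold and 1.30-fold ranges.

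Other genes of mitochondrial protein quality control came from lists drawn up with results of these data known. For these and the lists below, the shares over all tested genes were 24.6% higher and 13.3% lower in KO. In ETO they were 26.8% higher and 34.0% lower. Of 12 other matrix chaperones and Hsp70 partners, 2 rose and 3 fell in KO, and 3 rose and 6 fell in ETO, with medians of 0.02 in KO and -0.26 in ETO. By total signal, 1 rose and 4 fell in KO and 3 rose and 3 fell in ETO, with medians of -0.14 in KO and -0.07 in ETO. Grpel1, the nucleotide exchange factor of Hspa9, had 1340 and 1282 normalised counts in KO against 1049 and 893 in WT (log2 change 0.44 ± 0.07, limma adjusted p = 0.000337). In ETO it went the other way, with 1630 and 1598 against 2089 and 2090 in Control. Bcs1l, an inner membrane AAA chaperone of respiratory complex III, fell in both: to 164 and 145 in KO, against 269 and 253 in WT, and to 168 and 180 in ETO, against 305 and 316 in Control. Its log2 changes were -0.75 ± 0.11 in KO (limma adjusted p = 0.000132) and -0.83 ± 0.11 in ETO (limma adjusted p = 1.35e-05). Trap1, the mitochondrial Hsp90, had 1790 and 1880 in ETO against 3286 and 3522 in Control (log2 change -0.89 ± 0.06, limma adjusted p = 6.28e-09). Hscb, the co-chaperone of iron-sulfur cluster transfer, rose to 331 and 329 in ETO, against 208 and 207 in Control (log2 change 0.67 ± 0.10, limma adjusted p = 3.93e-05).

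Of 13 other mitochondrial proteases, 1 rose and 4 fell in KO and 4 rose and 8 fell in ETO, with medians of -0.18 in KO and -0.31 in ETO. By total signal, 0 rose and 6 fell in KO and 4 rose and 5 fell in ETO, with medians of -0.34 in KO and -0.12 in ETO. Mipep, the mitochondrial intermediate peptidase, had 424 and 479 normalised counts in KO against 717 and 707 in WT (log2 change -0.66 ± 0.11, limma adjusted p = 0.000323). Lactb, a serine protease-like protein of the intermembrane space, had 299 and 296 in ETO against 82.6 and 117 in Control (log2 change 1.59 ± 0.20, limma adjusted p = 4.78e-06). Pitrm1, which degrades cleaved presequences, fell in ETO by a log2 change of -0.60 ± 0.06 (limma adjusted p = 3.87e-07).

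Among 9 partners and substrates of the inner membrane proteases, 1 rose and 1 fell in KO and 2 rose and 4 fell in ETO, and by total signal 1 rose and 3 fell in KO and 3 rose and 4 fell in ETO. Opa1, the fusion protein that Oma1 and Yme1l1 cleave, had 1283 and 1558 normalised counts in KO against 1651 and 2005 in WT (log2 change -0.36 ± 0.10, limma adjusted p = 0.0092), a call lost in 4 alternatives, which include those without KO replicate 1 and without WT replicate 2. Phb2, a prohibitin that forms a scaffold around the m-AAA protease and is merged with a predicted gene in its row, had 2392 and 2608 in ETO against 4399 and 4389 in Control (log2 change -0.81 ± 0.06, limma adjusted p = 1.38e-08). Stoml2, which holds Yme1l1 and Parl in a membrane complex, fell in ETO by a log2 change of -0.75 ± 0.07 (limma adjusted p = 2.82e-07). Ghitm, an inner membrane protein that interacts with Afg3l2 in human cells, rose in both, to 9136 and 9743 in KO, against 5466 and 6073 in WT, and to 6081 and 6044 in ETO, against 3328 and 3299 in Control. Its log2 changes were 0.71 ± 0.06 in KO (limma adjusted p = 1e-06) and 0.87 ± 0.06 in ETO (limma adjusted p = 6.57e-09).

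Of 18 import genes, 2 rose and 1 fell in KO, and 0 rose and 16 fell in ETO, with a median log2 change of -0.52. Tomm22, a receptor of the outer membrane translocase, had 845 and 786 normalised counts in ETO against 1574 and 1538 in Control (log2 change -0.93 ± 0.07, limma adjusted p = 1.49e-08). Tomm40, the pore of that translocase, had 1244 and 1390 in ETO against 2504 and 2434 in Control (log2 change -0.91 ± 0.09, limma adjusted p = 6.84e-07). By median-of-ratios or TMM factors 11 of the 18 fell in ETO, and by total signal 8.

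Ddit3 and Atf4 rose in both KO and ETO, and Atf5 rose in ETO. Ddit3 had 1368 and 1173 normalised counts in KO against 536 and 490 in WT, and 1476 and 1542 in ETO against 99.2 and 76.9 in Control, log2 changes of 1.30 ± 0.13 and 4.09 ± 0.13 (limma adjusted p = 4.02e-06 and 2.41e-12). Atf4 had 8322 and 8355 in KO against 4874 and 5049 in WT, and 8608 and 8331 in ETO against 5052 and 4960 in Control, log2 changes of 0.75 ± 0.05 in KO and 0.76 ± 0.05 in ETO (limma adjusted p = 2.98e-07 and 1.1e-08). Atf5 had 462 and 458 in KO against 566 and 467 in WT, a log2 change of -0.16 ± 0.10 (limma adjusted p = 0.245), and 1802 and 2059 in ETO against 436 and 494 in Control, a log2 change of 2.05 ± 0.10 (limma adjusted p = 2.42e-10). Hsf1, the heat shock factor, had 652 and 505 in KO and 603 and 538 in WT, overlapping (log2 change 0.01 ± 0.11, limma adjusted p = 0.954). In ETO it had 461 and 466 against 591 and 526 in Control (log2 change -0.27 ± 0.11, limma adjusted p = 0.0491), and that call was lost in 13 alternatives. Eif2ak1, an eIF2-alpha kinase that relays mitochondrial stress in human cells, fell in KO by a log2 change of -0.44 ± 0.09 (limma adjusted p = 0.000964) and in ETO by -0.46 ± 0.09 (limma adjusted p = 0.000232). Of the 11 stress factors and kinases, 5 rose and 1 fell in KO and 7 rose and 3 fell in ETO.

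Chaperones of other compartments gave these counts, where all tested genes gave 24.6% higher and 13.3% lower in KO and 26.8% and 34.0% in ETO. Of 20 cytosolic chaperones, 16 rose and 0 fell in KO, and 1 rose and 15 fell in ETO, with medians of 0.38 and -0.56. Rescaling left 11 or 12 higher and 0 lower in KO. Of 15 chaperones of the endoplasmic reticulum, 10 rose and 1 fell in KO and 4 rose and 4 fell in ETO, with medians of 0.53 and -0.03. By total signal the endoplasmic reticulum split in ETO was 9 higher and 1 lower. No test of a difference between these lists and the mitochondrial genes was run.

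**Figure D5:**
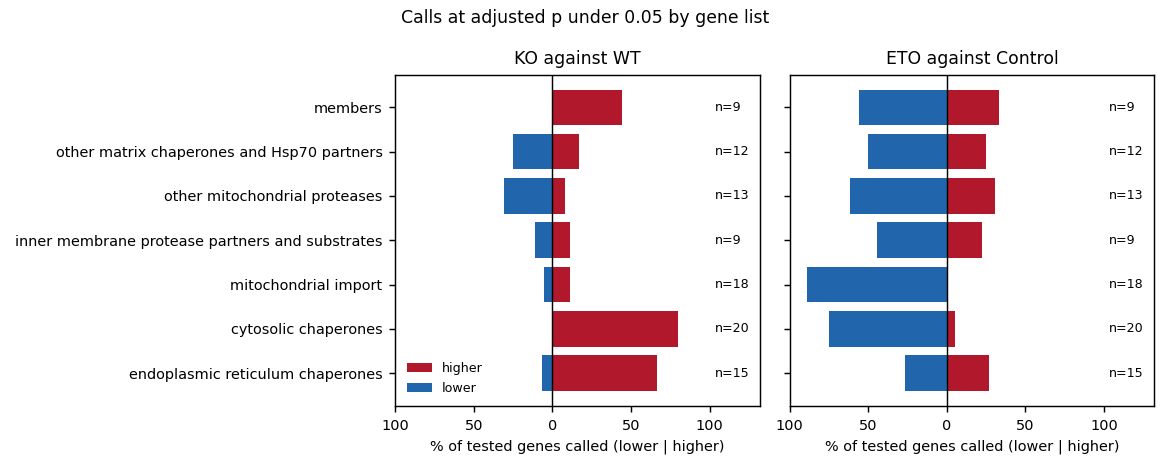
Share of tested genes called lower (blue, left of 0) and higher (red, right of 0) in KO against WT and in ETO against Control, for the 9 genes (members) and for lists of related genes. The import list shows 0 higher and 16 lower of 18 in ETO.

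Expression profiles over the 10 libraries were compared as the root mean square difference of log2 values centred per gene, among 10100 genes with a mean of at least 50 normalised counts, passing over predicted genes. Closest to Hspd1 were Hmgn1 (0.047), Smc2 (0.051) and Uba2 (0.057), where its own profile had a root mean square of 0.321. Closest to Hspe1 were Uri1 (0.061), Pcgf6 (0.063) and Sgol1 (0.070), and to Hspa9 Plekha1 (0.063), its own pseudogene Hspa9-ps1 (0.081) and the merged row of Mbtps2 and Yy2 (0.083). Clpp was closest to Thoc6 (0.034), Lonp1 to Sh2b1 (0.061), Clpx to Gpkow (0.062), Yme1l1 to Rnf2 (0.053), Oma1 to Slc25a32 (0.072) and Afg3l2 to Exosc3 (0.049). Among the 9 genes themselves the closest pair was Clpx and Lonp1 (0.127), then Afg3l2 and Yme1l1 (0.129). The own profiles of Clpx and Lonp1 had root mean squares of only 0.139 and 0.104, so both varied little. For Afg3l2 and Yme1l1 they were 0.170 and 0.183. Hspd1 and Hspe1 differed by 0.310, and the most distant pair was Hspa9 and Hspd1 (0.589).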

How the data were processed

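Libraries were made with the Illumina TruSeq protocol and sequenced single-end, per the labels' protocols. TopHat2 2.1.1, SAMtools 1.5, deepTools and mm10 appear in the submitters' processing notes; which tool counted reads per gene is not given in the sources used here. The deposited normalised counts, per the file headers a count per gene and library, are signal values: with a tolerance of 0.1 read, whole multiples of 1 step per library made up 86.95% to 88.18% of values, and 90.29% to 91.84% of those under 20 reads. They were therefore not treated as whole reads, and no count model was fitted. The deposited FPKM values, per the file headers, served for levels per length and as an alternative.

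Values were tested as log2(value + 1), which understates the changes of low genes, for genes with at least 10 in at least 2 libraries. All 10 libraries entered a limma 3.58.1 model (R 4.3.3; empirical Bayes, trend, robust) with a mean for each group, with Benjamini-Hochberg adjustment over all tested genes, two-sided. The procedure was tested on simulated data, with the same spread setting for all genes and no error in the scaling of libraries. That test changed far fewer genes than were called here, and no call rests on it. It says nothing about how the scaling moves calls. Alternatives were 3 rescalings, 2 pseudocounts, 2 filters, FPKM values, fits per experiment, no trend and robust fitting, a replicate block, leaving out each library, and copies summed, which was added after the data were seen. Of 50273 rows, 1314 merge genes; rows of one name were summed. Sequence copies were found with BLAST 2.17.0 in GENCODE M21 transcripts (at least 90% identity over 100 bases). Tables and figures used Python 3.11.15, numpy 2.4.6, pandas 2.3.3 and matplotlib 3.10.9.

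The genes and lists were chosen with earlier results of these data known. Named were all listed genes, up to 4 per related list with the smallest adjusted p in KO and in ETO, Kat8, all stress factors, and the 3 closest profiles per gene; examples were picked from these.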

Additional observations from a re-analysis of the deposited data

How the results depend on the processing

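Of the changes of the 9 genes, recomputed under 22 alternatives (21 for the difference of KO and ETO changes, which a fit per experiment cannot give), 878 kept their direction and their side of the threshold, 71 lost the call, 19 gained it and 13 changed sign. As deposited, 0 genes were lower in KO, where 6086 of 16056 tested genes were called, 3944 of them higher. By median-of-ratios factors 1 was lower (5836 called, 3061 of them higher), and by TMM factors 1 (5860 called, 3101 higher). By total signal 2 were lower (5823 called, 2173 higher). By total signal, 2 were lower in ETO, where 9343 of 16056 tested genes were called, 5489 of them higher. With that factor, 3 were higher in Released against ETO, where 4015 tested genes were called higher. In the difference 3 were higher, where 2968 tested genes were. Against ETO, 1 was lower in Released in the FPKM values (6885 of 16056 tested genes called, 3984 of them higher). Without trend and robust fitting 1 was lower (8654 called, 4928 higher). Against Control, a fit per experiment gave 1 higher and 2 lower in Released. That fit called 3662 of 16056 tested genes, against 2012 in the main fit. TMM factors gave 1 lower, with 2058 of 16056 tested genes called, and a filter at 50 gave 1 lower, with 1960 of 12690. In the difference, the number lower was 0 in the FPKM values, 0 without trend and robust fitting and 1 with no filter. Over all tested genes, 6139 of 16056, 8019 of 16056 and 8549 of 27839 were called there, in the same order. When each library was left out in turn, the genes higher in Released against ETO numbered 3 to 5 and those lower 1 to 3, those higher in Released against Control 0 to 1 and those lower 0 to 2, and those lower in the difference 0 to 1. The number of all tested genes called also differed between the fits that left out a library. The causes were not tested.

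Sign changes by total signal were Lonp1 (-0.09) and Yme1l1 (-0.01) in KO, Oma1 (0.19) in ETO, and Hspa9 (-0.09) and Afg3l2 (-0.18) in the difference. Of these, Hspa9 alone had been called. Oma1 in ETO was 0.10 by median-of-ratios factors, 0.09 by TMM factors, 0.30 in the FPKM values and -0.05 to 0.05 with a library left out. Afg3l2 in the difference was -0.01 by median-of-ratios factors. Clpx in Released against Control was -0.02 in the FPKM values and -0.07 to 0.13 with a library left out. Among the related genes, Hsf1 in KO was -0.07 by median-of-ratios factors, -0.06 by TMM factors, -0.15 by total signal and -0.17 to 0.20 with a library left out. Eif2ak3 in KO was -0.07, -0.06, -0.15 and -0.11 to 0.13 in the same order. Eif2ak2 in KO was -0.13 to 0.13 with a library left out. By total signal, Phb2 was -0.01 and Eif2ak4 -0.02 in KO, and Eif2ak4 was 0.07 in ETO.

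Replicate numbers did not pair the samples: deviations of same-numbered samples correlated between -0.036 and 0.081. With the replicate block, 6240 genes were called in KO (6086 without), 9852 in ETO (9763), 9353 in Released against ETO (9262), 2168 in Released against Control (2012) and 8888 in the difference (8754), and no call of the 9 genes changed. With 2 libraries per group, a library left out leaves a group with 1, which is then taken to vary like the others. The SE was widest for Oma1, which had the lowest counts of the 9 genes.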
